A study of Mus musculus with 11 samples.

Results

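A set of 10 genes known as markers of radial glia or of basal radial glia was followed in basal progenitors sorted from mouse cortex on embryonic day 13 (E13) and embryonic day 16 (E16): Ptprz1, Tnc, Bcan, Mfge8, Prom1, Pdpn, Ednrb, Fabp7, Ddah1 and Hopx. They were taken by name, as every probe of the raw intensity table whose platform gene symbol was one of the 10, which gave 25 of the 45281 probes. Of these 25 probes, 13 were detected above background (p under 0.05) on at least 5 of the 11 arrays, and each of the 10 genes kept at least 1 such probe. The whole comparison covered 10568 genes. The study held 6 arrays of E13 cortex and 5 of E16 cortex, each from a different embryo as titled, with 3 litters behind each stage. The 11 column labels end in WT, read here as wild type, and no treatment, transgene or strain is given in the labels. Cells were isolated by fluorescence-activated sorting as basal progenitors, and the sources used here do not give the sort marker. The name of the gene set describes the genes and not the sorted cells.

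Radial glia are the stem cells of the embryonic cortex. Their cell bodies line the ventricle, they are held together there by apical junctions, and a long basal fibre runs from them to the outer surface. They give rise to basal progenitors, which leave the ventricle, express the T-box factor Eomes and divide to make neurons, while basal radial glia are a related stem cell outside the ventricular zone that keeps glial genes and is abundant in the human cortex and rare in the mouse. The 10 genes fall into matrix and matrix-binding proteins (Ptprz1, Tnc, Bcan), a secreted bridging protein (Mfge8), membrane proteins of the cell surface (Prom1, Pdpn, Ednrb), proteins of the cytosol (Fabp7, Ddah1) and a nuclear cofactor (Hopx).

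All 11 arrays detected a similar share of probes, between 43.6% and 45.5%. Array replicate 1 of E13 and replicate 3 of E16 stood apart for the gene list of Cajal-Retzius cells, which are among the first cortical neurons, and whose mean log2 level was above that of its own stage by 0.58 and 0.75. Calls of named genes and counts of the gene lists that changed without both arrays are given that way too. Eomes, the defining gene of basal progenitors, was detected on all 11 arrays, with a log2 mean of 11.12 ± 0.26 on the 6 E13 arrays and of 10.37 ± 0.33 on the 5 E16 arrays (SD). The cortical factors Emx1 and Lhx2 were detected on all 11 arrays as well, while Emx2 was detected on none.

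The 10 markers did not move as one. At E16, 5 were higher than at E13 (Ptprz1, Mfge8, Tnc, Bcan and Fabp7), 4 were lower (Hopx, Pdpn, Prom1 and Ddah1) and Ednrb did not pass the test. Across all 10568 genes 27.1% passed in either direction, 13% higher and 14.1% lower. Centring each array on its median in place of quantile normalization turned the split of all changed genes from 47.9% to 37.4% higher, and that of the markers from 5 higher and 4 lower to 4 and 4. The median difference was 0.14 over the 10 markers and -0.01 over all genes. E13 and E16 arrays formed separate ranges for 6 of the 10 markers, against 17% of all genes. The fitted difference passed 2-fold for 3 markers, Ptprz1, Mfge8 and Tnc, all higher, and for Tnc only a smaller bound was measured. Among all genes, 2% passed 2-fold higher and 4.94% in either direction. Hopx, Pdpn and Prom1 stayed just short of the cut, at 1.98-, 1.93- and 1.9-fold lower. Without the normexp background correction these 3 falls passed 2-fold, and so did the rise of Bcan. The 3 falls also passed on the authors' own normalized values, which do not list Tnc and Bcan. With median centring, the falls of Hopx and Pdpn passed. Taken probe by probe, 8 of the 13 kept probes were higher and 4 lower, against 22.6% of all kept probes in either direction, 10.7% higher and 11.9% lower. Tnc and its 2 kept probes entered these counts through their E16 arrays alone. Bcan and its 1 kept probe also depended on E16, with detection on 2 of 6 E13 and all 5 E16 arrays. Without E13 replicate 1 and E16 replicate 3, 4 markers were higher and 4 lower (median 0.19), while the genes called among all 10568 went from 1373 to 1017 higher and from 1495 to 1153 lower. In a bulk sample of sorted cells, fewer cells of a type and less RNA per cell cannot be told apart.

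**Figure D1:**
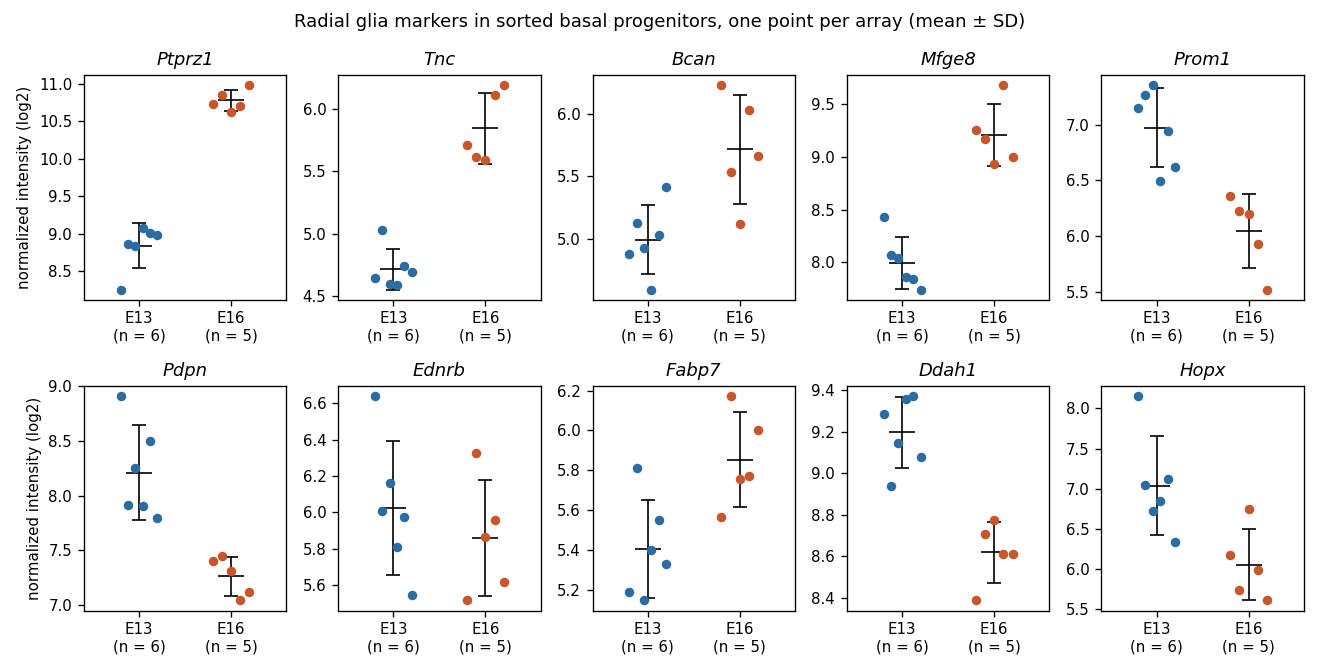
Normalized log2 intensity of the tested probe of each marker on every array, with E13 in blue and E16 in orange, and the black bar and whiskers giving mean and SD. The E16 points of Ptprz1, Tnc and Mfge8 lie above all E13 points, those of Prom1, Pdpn and Ddah1 lie below them, and the stages overlap for Bcan, Ednrb, Fabp7 and Hopx.

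To show the DNA next to these genes, 5 upstream stretches are printed, each of 250 bases ending at the base before the annotated transcript start. They are from RefSeq on build GRCm38.p6, where all 10 markers had an entry. The first 3 belong to genes that were higher at E16 and hold the letters bound by Rbpj, the DNA-binding partner of Notch. The other two belong to genes that were lower at E16 and do not. These 5 were picked after the values were seen, and among stretches lying wholly outside the annotated gene. They do not stand for the 10: Ptprz1 and Bcan rose without the Rbpj letters, and Prom1 fell with them. Capitals mark the Rbpj letters (TGGGAA or its reverse complement TTCCCA) and the half-site of nuclear factor I, the family of Nfib and Nfix (TTGGC or GCCAA).
Tnc, chr4:64047016-64047265, minus strand: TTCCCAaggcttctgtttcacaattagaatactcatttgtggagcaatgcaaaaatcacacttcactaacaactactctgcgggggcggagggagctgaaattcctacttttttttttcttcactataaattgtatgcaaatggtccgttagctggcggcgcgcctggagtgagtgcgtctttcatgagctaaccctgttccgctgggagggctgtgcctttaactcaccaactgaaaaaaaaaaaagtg
Mfge8, chr7:79149061-79149310, minus strand: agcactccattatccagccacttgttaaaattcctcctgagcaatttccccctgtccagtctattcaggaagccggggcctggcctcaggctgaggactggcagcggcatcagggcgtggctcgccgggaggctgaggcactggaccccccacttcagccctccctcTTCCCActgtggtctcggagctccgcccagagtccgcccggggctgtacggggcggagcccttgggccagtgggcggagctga
Fabp7, chr10:57784673-57784922, plus strand: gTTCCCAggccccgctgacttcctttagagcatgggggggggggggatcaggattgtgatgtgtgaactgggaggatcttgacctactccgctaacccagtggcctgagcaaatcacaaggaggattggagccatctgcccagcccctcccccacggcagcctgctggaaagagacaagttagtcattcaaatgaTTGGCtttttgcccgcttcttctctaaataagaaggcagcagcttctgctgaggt
Pdpn, chr4:143299565-143299814, minus strand: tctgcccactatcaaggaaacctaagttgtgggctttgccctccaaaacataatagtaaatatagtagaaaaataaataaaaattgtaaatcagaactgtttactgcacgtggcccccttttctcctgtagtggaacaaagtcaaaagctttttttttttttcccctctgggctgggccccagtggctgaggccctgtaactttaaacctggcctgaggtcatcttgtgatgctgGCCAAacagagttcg
Ddah1, chr3:145758442-145758691, plus strand: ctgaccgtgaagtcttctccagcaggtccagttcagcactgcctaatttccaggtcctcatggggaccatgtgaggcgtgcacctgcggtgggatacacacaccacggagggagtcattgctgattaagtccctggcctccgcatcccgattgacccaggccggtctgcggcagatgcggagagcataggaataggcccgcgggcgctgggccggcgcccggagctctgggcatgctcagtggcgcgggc
Counting the first entry of each marker and both strands, the Rbpj letters were found upstream of 4 of 10 markers (these 3 and Prom1, which fell), and in 21.6% of all 32851 upstream stretches of that length. The nuclear factor I half-site was found for 5 of 10 markers and in 41.5% of all stretches, the Sox letters ACAAT or ATTGT for 3 and in 27.7%, and the Tead letters GGAATG or CATTCC for 0 and in 12.6%. A match describes the letters only.

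Ptprz1 had the largest difference of the 10. It encodes a receptor tyrosine phosphatase of glial cells whose extracellular part is a chondroitin sulphate proteoglycan. The lowest, median and highest E13 arrays read 8.26, 8.93 and 9.08 in log2 units, and E16 replicates 1 to 5 read 10.72, 10.85, 10.62, 10.70 and 10.98. All 5 E16 arrays were above every E13 array. The means were 8.84 ± 0.30 (SD, n = 6) and 10.78 ± 0.14 (SD, n = 5), so Ptprz1 rose by 1.94 on the log2 scale, or 3.82-fold (SE 0.13, 95% confidence interval 1.65 to 2.22, adjusted p = 1.37e-07). A second probe, with its own mean of 6.04 at E13, rose by 1.89 (adjusted p = 0.000287 over all kept probes).

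Tnc, the extracellular matrix glycoprotein tenascin C, was the second matrix gene to rise. It was detected on 0 of 6 E13 arrays and on all 5 E16 arrays. The lowest, median and highest E13 values were 4.59, 4.67 and 5.03, at background, and E16 replicates 1 to 5 read 5.71, 5.61, 5.59, 6.11 and 6.19, with no overlap. Because E13 gives only a bound, Tnc was at least 1.66-fold higher at E16 (means 4.72 and 5.84, adjusted p = 3.02e-05). For this bound the bright stage's mean was set against a floor on each dim array, its dimmest detected probe or the probe itself, whichever was brighter. Of the 7 Tnc probes 2 were kept, and the second was likewise detected on 0 and 5 arrays and at least 1.54-fold higher (adjusted p = 2.83e-05). Of the other 5 probes, 1 was detected on a single E16 array and 4 on none. A probe detected on no E13 array could be kept only with all 5 E16 arrays. The counts of 0 and 5 for the kept probes thus follow from the filter. Without a detection filter Tnc also passed (adjusted p = 2.08e-05).

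Bcan encodes brevican, a hyaluronan-binding proteoglycan of brain matrix. Its lowest, median and highest E13 values were 4.60, 4.98 and 5.41, and E16 replicates 1 to 5 read 6.23, 5.54, 5.12, 6.03 and 5.66. The stages overlapped, since E16 replicate 3 lay below the highest E13 array. Bcan was detected on 2 of 6 E13 arrays and on all 5 E16 arrays, and it rose by 0.72 on the log2 scale (SE 0.19, 95% confidence interval 0.31 to 1.13, adjusted p = 0.0109). Its 2 E13 arrays were too few for the filter, so Bcan was kept through E16, where it was higher. Without a detection filter Bcan also passed (adjusted p = 0.0146). The other 2 Bcan probes were detected on 0 of 11 arrays. Near background, log2 values after the offset of 16 understate a fold change. This applies to Tnc, Bcan, Fabp7 and Ednrb, and to the E16 values of Prom1 and Hopx.

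Mfge8, a secreted glycoprotein that bridges phosphatidylserine and integrins, rose with both of its probes. The lowest, median and highest E13 arrays read 7.74, 7.95 and 8.43, and E16 replicates 1 to 5 read 9.25, 9.17, 8.94, 9.68 and 9.002. Every E16 array was above every E13 array. The means were 8.00 ± 0.25 (SD, n = 6) and 9.21 ± 0.29 (SD, n = 5), a rise of 1.21 on the log2 scale or 2.32-fold (SE 0.15, 95% confidence interval 0.89 to 1.53, adjusted p = 2.70e-05). The second probe was annotated to another transcript and rose by 1.24 (adjusted p = 0.000894 over all kept probes).

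Prom1 and Pdpn, both membrane proteins of the cell surface, fell to a similar degree. Prom1, or CD133, sits on apical membrane protrusions of neuroepithelial and radial glial cells. Its lowest, median and highest E13 values were 6.50, 7.05 and 7.35, and E16 replicates 1 to 5 read 6.36, 6.23, 6.20, 5.93 and 5.52. All E16 arrays were below all E13 arrays, and Prom1 fell by 0.92 on the log2 scale, or 1.9-fold (SE 0.19, 95% confidence interval -1.32 to -0.52, adjusted p = 0.00184). This value rests on 1 of 3 probes, each annotated to a different transcript record. The probe tested is not the one annotated to a RefSeq transcript. The other 2, the RefSeq one first, were detected on 2 and 1 of 11 arrays, too few to be tested. They were near background at both stages and differed by -0.06 and 0.07.

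Pdpn, podoplanin, is a mucin-type glycoprotein that links the surface to the actin cytoskeleton. From lowest through median to highest, E13 arrays read 7.79, 8.08 and 8.91, and E16 replicates 1 to 5 read 7.40, 7.45, 7.31, 7.04 and 7.12, again without overlap. It fell by 0.95, or 1.93-fold (SE 0.18, 95% confidence interval -1.34 to -0.56, adjusted p = 0.00133). Its highest E13 value was on replicate 1, and it fell by 0.81 without that array (adjusted p = 0.00130).

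Ednrb, the endothelin receptor type B, was the marker that did not pass. E13 arrays read 5.55, 5.99 and 6.64 at their lowest, median and highest, and E16 replicates 1 to 5 read 5.52, 6.33, 5.86, 5.96 and 5.62, with broad overlap. The difference was -0.17 on the log2 scale (SE 0.19, 95% confidence interval -0.57 to 0.24, adjusted p = 0.560), an interval that spans 0. A second Ednrb probe was detected on 4 E13 arrays and 0 E16 arrays, and the third on none.

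Fabp7, the brain fatty acid binding protein of radial glia, rose by the smallest amount. The lowest, median and highest E13 arrays read 5.15, 5.37 and 5.81, and E16 replicates 1 to 5 read 5.56, 6.17, 5.76, 5.77 and 6.001. The stages overlapped, through E13 replicate 2 and E16 replicates 1, 3 and 4. The rise was 0.45 on the log2 scale, or 1.36-fold (SE 0.15, 95% confidence interval 0.13 to 0.76, adjusted p = 0.0346). This call was lost without E13 replicate 1, 3, 4 or 6 or E16 replicate 2 or 5, where the difference lay between 0.37 and 0.45 and the adjusted p between 0.0586 and 0.0947, with median centring (0.40, adjusted p = 0.0662) and without a detection filter (adjusted p = 0.0702). It was also lost with E13 replicate 1 and E16 replicate 3 both left out (0.43, adjusted p = 0.0931).

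Ddah1, a cytosolic enzyme that degrades asymmetric dimethylarginine, an inhibitor of nitric oxide synthases, fell by a small amount relative to the other 3 markers that fell. Across E13, Ddah1 read 8.94, 9.21 and 9.37 at its lowest, median and highest, and E16 replicates 1 to 5 read 8.39, 8.71, 8.77, 8.61 and 8.61. No array of one stage reached the other. Ddah1 fell by 0.58, or 1.49-fold (SE 0.11, 95% confidence interval -0.80 to -0.35, adjusted p = 0.000839).

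Hopx, a homeodomain protein that does not bind DNA itself and marks outer radial glia of the human cortex, varied most. Hopx read 6.33, 6.94 and 8.16 at its lowest, median and highest at E13, and E16 replicates 1 to 5 read 6.18, 5.74, 6.74, 5.99 and 5.61. E13 replicate 1 was the highest E13 array and E16 replicate 3 the highest at E16, where it lay above E13 replicates 3 and 6. Hopx fell by 0.98 on the log2 scale, or 1.98-fold (SE 0.27, 95% confidence interval -1.57 to -0.40, adjusted p = 0.0150). It fell by 0.76 without E13 replicate 1 (adjusted p = 0.0173) and by 0.93 without these 2 arrays (adjusted p = 0.00261). Its second probe was detected on 0 of 11 arrays.

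**Figure D2:**
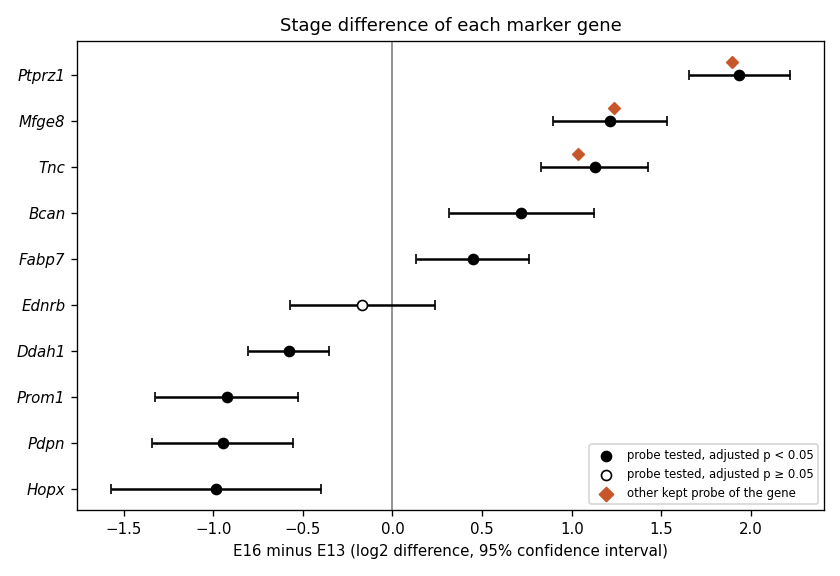
Difference E16 minus E13 of each marker on the log2 scale with its 95% confidence interval, ordered by size, filled where the adjusted p was under 0.05, with orange diamonds for a second kept probe of the same gene. The second probes of Ptprz1, Mfge8 and Tnc lie close to the first (1.89, 1.24 and 1.04), and only the interval of Ednrb crosses 0.

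Among replicates of E13, a pair of arrays lay at opposite ends for the same 4 markers. E13 replicate 1 had the highest E13 value of 4 of the 10 markers, namely Hopx, Pdpn, Ednrb and Mfge8, which stood 1.12, 0.70, 0.62 and 0.43 above their E13 means. E13 replicate 6 had the lowest E13 value of the same 4, with Hopx 0.70 and Pdpn 0.42 below their E13 means. On replicate 1 Ptprz1 was 0.58 below its E13 mean and the lowest of all 11. The means of the Cajal-Retzius list and of the choroid plexus and cortical hem list were 0.58 and 0.60 above their E13 means on replicate 1, and that of the interneuron list was 0.68 above. At E16, Hopx was 0.69 above its stage mean on replicate 3, where the Cajal-Retzius list was 0.75 above its own and the hem list 0.10. The part of these other cells in the marker values was not tested.

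**Figure D3:**
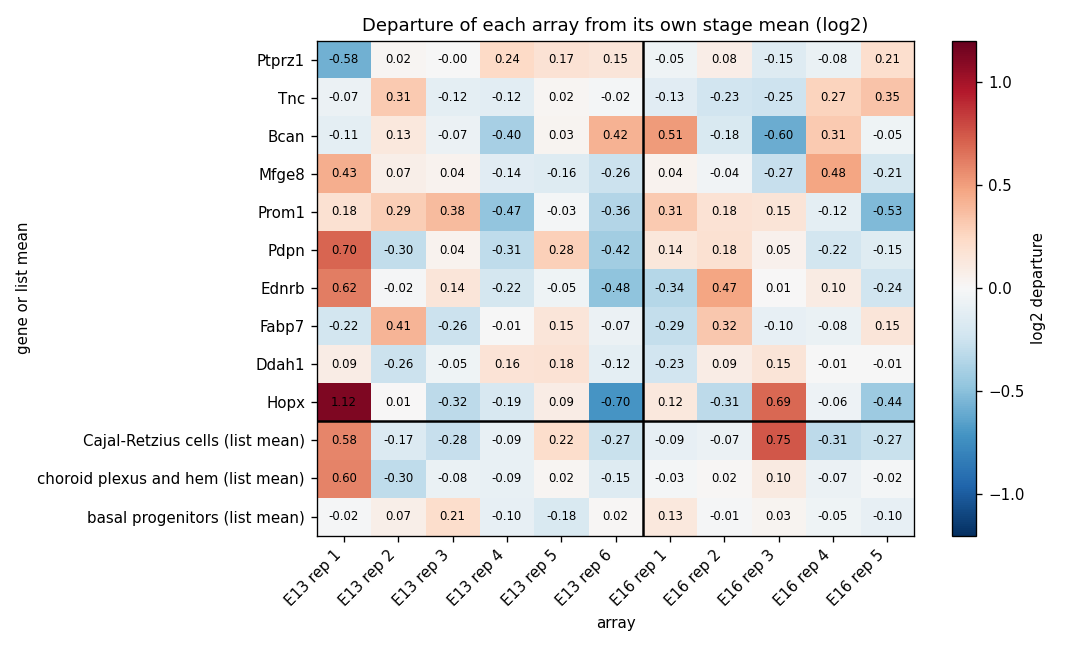
Departure of every array from the mean of its own stage, in log2 units, for the 10 markers and for the mean of 3 marker lists, red for above and blue for below. The E13 replicate 1 column is red for Hopx (1.12) and for the Cajal-Retzius list (0.58) and blue for Ptprz1 (-0.58), and E16 replicate 3 is red for Hopx (0.69) and the Cajal-Retzius list (0.75).

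Other genes of radial glia were also divided. Of 20 listed beside the markers, 19 were tested, of which 2 rose, 5 fell and 12 did not pass (median -0.19). The glutamate transporter Slc1a3 rose by 2.22 (adjusted p = 1.58e-08) and the transcription factor Zbtb20 by 1.53 (adjusted p = 2.84e-07), while Vim, which encodes the filament protein vimentin, fell by 1.56 (adjusted p = 1.43e-06). The factors Pax6 and Sox2, which define radial glia, differed by 0.13 (adjusted p = 0.557) and -0.23 (adjusted p = 0.438). Pax6 was near background, detected on 4 of 6 and 3 of 5 arrays.

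Few further genes linked to basal radial glia could be measured. Of 12 listed, 4 were kept, of which 1 rose and 2 fell, and 6 were detected on no array. The gene that rose, by 1.97 (adjusted p = 1.02e-05), was Trnp1, a nuclear protein whose loss in mouse cortex increases basal progenitors and basal radial glia. By that role Trnp1 does not mark these cells, and the other kept genes fell or did not pass. Fam107a, an actin-associated protein of human outer radial glia, was detected on all 6 E13 arrays and 0 E16 arrays. Fam107a was thus kept through its E13 arrays alone, and it was at least 2.02-fold lower (means 6.16 and 4.62, adjusted p = 2.86e-06). Il6st, the shared receptor subunit for leukaemia inhibitory factor and related cytokines, fell by 0.57 (adjusted p = 0.0123). With detection on 1 array at E16, Il6st was also kept through E13. With E13 replicate 1 and E16 replicate 3 left out, 1 of the 4 rose and 1 fell.

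Genes that bind or act beside the matrix markers changed one by one. Of 5 measured ligands and partners of Ptprz1, 2 rose and 1 fell. Its secreted ligand Ptn, pleiotrophin, rose by 2.24 (adjusted p = 3.79e-08) and the adhesion protein gene Nfasc by 0.94 (adjusted p = 0.000229), while Nrcam, of the same adhesion family, fell by 1.03 (adjusted p = 5.57e-05). The other secreted ligand, Mdk, differed by 0.21 (adjusted p = 0.170). Of 5 measured matrix partners of tenascin C and brevican, 0 rose and 2 fell. The proteoglycan versican, Vcan, a relative of brevican, fell by 1.53 (adjusted p = 3.10e-05). The hyaluronan synthase Has2, detected on 6 E13 and 0 E16 arrays and so kept through E13 alone, was at least 1.93-fold lower (means 6.10 and 4.71, adjusted p = 0.000560). Of 5 measured integrin subunits that receive Tnc or Mfge8, 1 passed, Itga9, which rose by 0.37 (adjusted p = 0.0439). With the same 2 arrays left out, it did not pass.

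Around the surface and cytosolic markers, the largest changes were in single genes. Of 8 measured genes of apical junctions and polarity, at the pole of the cell that carries Prom1, 0 rose and 1 fell, the polarity gene Pard3 by 0.31 (adjusted p = 0.0390), a call lost with the same 2 arrays left out. In the endothelin system, the converting enzymes Ece1 and Ece2 were the 2 of 6 genes tested and differed by -0.19 (adjusted p = 0.257) and 0.08 (adjusted p = 0.697). Edn2 and Edn3, 2 of the ligands of Ednrb, were detected on no array, and Edn1 on 1. Of 6 measured relatives and partners of Fabp7 in lipid and retinoid binding, 1 rose and 2 fell. Fabp3 rose by 0.66 (adjusted p = 0.00229) and Fabp5 differed by -0.33 (adjusted p = 0.0631), while the retinoic acid binding protein gene Crabp2, above background on every E13 array but on 2 of 5 at E16, fell by 3.31 (adjusted p = 7.54e-07) and Acsl3, an acyl-CoA synthetase, by 0.27 (adjusted p = 0.0336). With the same 2 arrays left out, 1 of the 6 rose and 1 fell. Of 7 measured genes of nitric oxide and arginine methylation, 2 rose and 0 fell. Nos1, the neuronal nitric oxide synthase, rose by 2.43 (adjusted p = 8.93e-07), the methyltransferase gene Prmt3 rose by 0.29 (adjusted p = 0.00732), and Ddah2, the second enzyme of the Ddah family, differed by 0.23 (adjusted p = 0.125).

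Ptprz1, Bcan, Tnc, Ednrb and Fabp7 are also genes of astrocytes or of the oligodendrocyte lineage. Of 10 measured gliogenic and astroglial genes, 5 rose and 3 fell (median 0.11). The nuclear factor Nfix rose by 1.56 (adjusted p = 4.09e-07), and Gja1, which encodes connexin 43, and Slc1a2, an astrocytic glutamate carrier whose probe was above background on 3 of 5 arrays at E16, fell by 1.57 and 1.28 (adjusted p = 2.83e-07 and 0.000157). Another Slc1a2 probe was detected on all 5 E16 arrays. Gfap, the astrocyte filament, rose by 0.38 (adjusted p = 0.0492) and was detected on 1 of 6 and 4 of 5 arrays. Apoe rose by 0.64 (adjusted p = 0.00288) and was detected on 1 of 6 and 5 of 5 arrays, so it was kept through E16. Sparcl1, kept through its E16 arrays alone (0 of 6 and 5 of 5), was at least 1.52-fold higher (adjusted p = 0.000324). In the oligodendrocyte lineage, 2 of 6 markers were kept, and the sum of their linear intensities was 77.4 to 102 at E13 and 122 to 166 at E16. Olig1 rose by 1.32 (adjusted p = 5.25e-05) and was detected on 2 of 6 and 5 of 5 arrays, Cspg4 differed by 0.10 (adjusted p = 0.538), and Olig2, Sox10 and Gpr17 were detected on no array, with Pdgfra detected on 2 E13 arrays. The part of such cells in the values of these 5 markers, or of the other markers, was not tested.

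**Figure D4:**
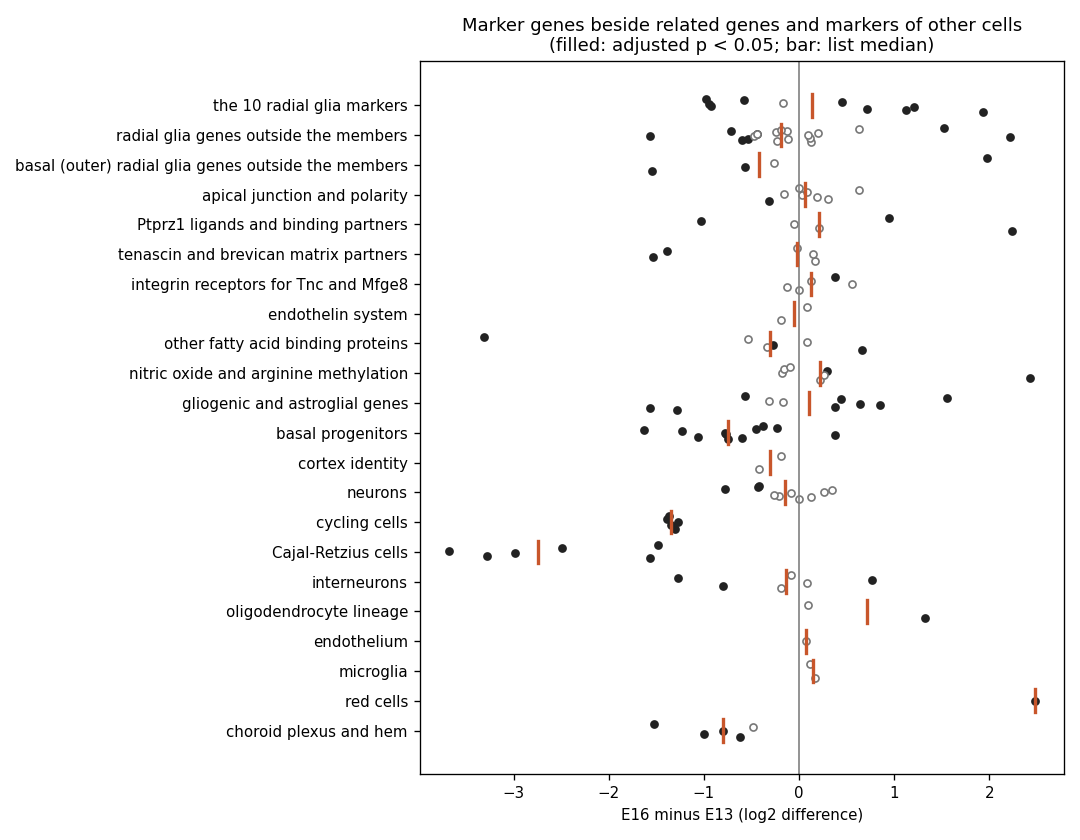
Difference E16 minus E13 on the log2 scale for each tested gene of the 10 markers, of the related lists and of markers of other cells, filled where the adjusted p was under 0.05, with an orange bar at the list median. The markers lie on both sides of 0 (median 0.14), while the basal progenitor (-0.75), cycling (-1.35), Cajal-Retzius (-2.74) and choroid plexus and hem (-0.80) lists have medians below 0.

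Markers of several cell types moved between the stages beside the radial glia genes. Of 11 measured basal progenitor markers 10 fell and 1 rose, with linear sums of 42515 to 51921 at E13 and 30597 to 38714 at E16, and Eomes fell by 0.75 (adjusted p = 0.00176). All 5 measured genes of cycling cells fell, with sums of 5475 to 7177 and 1814 to 2939. All 6 measured Cajal-Retzius genes fell (sums of 12023 to 18354 and 2790 to 5281), and so did 4 of 5 of the choroid plexus and hem (308 to 594 and 175 to 213), among them Otx2 by 1.52 (adjusted p = 5.25e-05). These falls ran beside those of Hopx, Pdpn, Prom1 and Ddah1, and their part in them was not tested. Of the choroid plexus markers, Kl was detected on no array and Ttr on 3 of 6 E13 and 0 E16 arrays. Of 10 measured neuronal genes 0 rose and 3 fell, among them Tbr1 by 0.78 (adjusted p = 0.00185), with sums of 58024 to 71685 and 54688 to 62792. Of 6 measured interneuron genes 1 rose and 2 fell (sums of 311 to 665 and 346 to 510), and with the same 2 arrays left out 1 rose and 1 fell.

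Blood vessel, meningeal and immune cells left few signals. In the endothelial list 6 of 8 genes were detected on no array, Pecam1 and Cdh5 among them, and the 1 gene kept, Esam, differed by 0.08 (adjusted p = 0.758, sums of 43.3 to 71.1 and 48.8 to 77.1). In the mural and meningeal list, which matters for Pdpn because meninges express it, 0 of 8 genes were kept and 6 were detected on no array. Dcn was detected on 4 of 6 E13 arrays and 0 E16 arrays, and Col1a2 on 1 and 0. The part of such cells in the fall of Pdpn was not tested. In the microglial list 4 of 6 were on no array (2 kept, sums of 65.4 to 83.7 and 70.0 to 93.9). Of the red cell genes 1 was kept, Hba-a1, which rose by 2.48 (adjusted p = 0.00643) and ranged from 33.9 to 748 at E13 and from 595 to 2009 at E16 in linear intensity.

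For each marker that passed, the genes whose stage-centred log2 values ran most alike over the 11 arrays were found among the 10568 tested, as a description with no test. The pair was Atxn7 (Pearson r = 0.94) and Arv1 (0.91) for Ptprz1, Urb2 (0.91) and Capn5 (0.89) for Tnc, and Tkt (0.89) and 1110038F14Rik (0.88) for Bcan. For Mfge8 it was Gpx3 (0.98) and Eif6 (0.96), although Gpx3 fell between the stages (log2 difference -1.33) while Mfge8 rose. For Prom1 it was Tead2 (0.92) and Riok1 (0.90), for Pdpn Ppp1r3c (0.94) and Slc27a2 (0.92), for Fabp7 Larp4 (0.93) and Psd3 (0.91), for Ddah1 Arpp19 (0.92) and Gprasp2 (0.92), and for Hopx Stat4 (0.96) and Insl6 (0.90). The 11 arrays share their stages' litters, and with so many genes compared high values of r arise readily.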

How the data were processed

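RNA of sorted basal progenitors was measured on an Illumina bead array, with total RNA from the mirVana kit and biotin-labelled cRNA, per the labels' protocols. The raw intensity table deposited by the authors is linear and not normalized between arrays, and 26.9% to 29.2% of its values are below 0, so a background had been subtracted. The detection p-value of each probe was deposited beside it, per the file headers. The authors' deposited log2 table covers 16554 probes, and its 11 columns share 1 distribution. The scanner software is not given in the sources used here.

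Intensities were corrected with normexp from the detection p-values, given an offset of 16, quantile normalized and taken to log2 (neqc, limma 3.58.1, R 4.3.3). Probes with a detection p-value under 0.05 on at least 5 arrays were kept (20599). A gene near background at 1 stage could thus be kept through the other stage, where it was higher. Counts of the markers and gene lists include such genes, in both directions. Of 45281 probes, 34885 had 1 gene symbol in the platform table, 18 several and 10378 none. The brightest kept probe stood for each gene. limma's lmFit and eBayes with trend compared 5 E16 with 6 E13 arrays, two-sided, with Benjamini-Hochberg adjustment over 10568 genes and a threshold of 0.05. The number of arrays limits the precision (median SE 0.126), and litters per embryo are not given, so p-values treat arrays as independent. On simulated arrays with 200 of 10568 genes changed by 1 log2 unit between these stages, 92.5% were recovered, with 10 false calls. The simulated arrays were independent, and smaller differences or shared litters were not simulated. Alternatives changed the normalization, background, filter, probe rule, weights, block and arrays. Those without an array kept the normalized values and refitted the model.

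The markers and gene lists were chosen with earlier results of these data known. Named genes were all 10 markers, the defining genes Pax6, Sox2, Slc1a3, Vim, Eomes, Tbr1 and Olig2, up to 3 changed genes of a list with the largest differences (where none did, 2 at most, given as values), and the 2 genes most like each changed marker. Other named genes were chosen after their values were seen.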

Additional observations from a re-analysis of the deposited data

Results flagged for a closer look

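Within a stage, the value farthest from its neighbours was set against Dixon's critical gap for each of the 10 markers, in 20 groups, of which chance flags about 1 in 20. The gap was too large for 2. Ptprz1 on E13 replicate 1, at 8.26, lay below the next E13 array at 8.83, a gap of 0.701 of the range of the 6 arrays. Without that array the rise was 1.82 (adjusted p = 2.96e-08). Tnc on E13 replicate 2, at 5.03, lay above the next at 4.74, a gap of 0.666 of the range, but the probe was not detected on that array.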

How the results depend on the processing

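Of 274 values recomputed with 1 choice of the processing changed at a time, 261 kept their direction and their side of the threshold or stayed within 1.5 times, and 0 reversed. Fabp7 was no longer past the threshold with median centring (0.40, adjusted p = 0.0662), without a detection filter (0.45, adjusted p = 0.0702) or with any of 6 arrays left out in turn (0.37 to 0.53 over all 11). It was also lost with E13 replicate 1 and E16 replicate 3 both left out (0.43, adjusted p = 0.0931), an alternative chosen after seeing the data. The cause was not tested. The other 9 markers kept their call in every alternative that could test them. Testing every kept probe on its own gave 2194 higher and 2455 lower of 20599 probes, and 8 higher and 4 lower of 13 probes of the markers. On the authors' own normalized values, 3 markers rose and 4 fell among the 8 listed there, without Tnc and Bcan, beside 1242 higher and 1256 lower of all 9029 genes. With detection p under 0.01 on all arrays, 6 markers could be tested, and 2 rose and 4 fell, beside 1189 higher and 1189 lower of all 8427 genes. No pairing of arrays by replicate number was seen, in a check of 5 numbers with litters per embryo not given. On the measure used for this check, same-numbered arrays correlated between -0.10 and 0.14. That measure was not the plain correlation of whole arrays, which lay between 0.9545 and 0.9745 for pairs across the stages. Of the 5 E16 arrays, 1 matched best with its own number. With the replicate block, 1161 genes were higher and 1293 lower, with 5 markers higher and 4 lower. Signal near background limits Tnc, Bcan, Fabp7 and Ednrb, and the E16 values of Prom1 and Hopx.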
